A study of Mus musculus with 11 samples.

Results

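The comparison is of late 2-cell mouse embryos that lacked maternal Rnf2 and Ring1, cultured with or without α-amanitin, a mushroom toxin that blocks RNA polymerase II. Its members are 5 of the 11 arrays of the study, taken by their labels: 2 arrays of α-amanitin-treated mutant embryos and 3 of untreated mutant embryos. The other 6 arrays, 3 of α-amanitin-treated and 3 of untreated control embryos, entered the fit and serve as a reference for what the drug did in embryos with maternal Rnf2. Treated embryos were moved at 6 h after fertilization into medium with α-amanitin at 24 µg/ml and were harvested at 35 h. At which hour untreated embryos were harvested is not stated in the labels used here.

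The mutant genotype is labelled maternal Ring1-Rnf2- and the control genotype maternal Ring1-Rnf+, so all 11 arrays share the loss of maternal Ring1 and the genotypes differ in maternal Rnf2. Eggs came from superovulated females of 5 to 10 weeks, on a mixed 129/Sv and C57BL/6J background, and wild-type sperm was used for in vitro fertilization. The embryos thus have a paternal copy of Rnf2, and because the sperm donors are also called control males, the labels leave unclear whether the paternal copy of Ring1 was intact. Each array holds 1 pool of 40 embryos from several mice, and the labels call the pools biological replicates. The promoter that drove the deletion in the egg is not named in the labels.

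RING1 and RNF2 are the E3 ubiquitin ligase subunits of Polycomb repressive complex 1 (PRC1), which places ubiquitin on histone H2A and keeps developmental genes silent. A mouse egg stops transcribing before it is ovulated, and the embryo starts to transcribe its own genome in the zygote and, more strongly, at the 2-cell stage. RNA that is lower with α-amanitin is usually read as made by RNA polymerase II after the drug was added, and RNA that is not lower as stored by the egg. A set of genes known from normal 2-cell embryos, among them Zfp352 and the Tdpoz and Usp17l families, is transcribed in a short burst at that stage, whereas genes for ribosome assembly, splicing and the proteasome make up much of the later activation. The comparison asks which transcription still took place in embryos without maternal Rnf2 and Ring1.

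The deposited values are log2 expression values, and a gene was read from its brightest probe set with 1 gene symbol, which gave 21650 genes. Levels are given as these log2 values and changes as log2 differences, α-amanitin minus untreated, with limma's standard error after ±. A gene was called changed at an adjusted p below 0.05 (limma over all 11 arrays, Benjamini-Hochberg over 34760 probe sets). The 1213 olfactory and vomeronasal receptor genes, which embryos are not known to use, show where the background lies: their 95th percentile was 4.53 in treated and 4.47 in untreated mutant embryos, and 1 of them was called in mutant embryos. The values carry no external standard, so an equal loss of all RNA would not be seen, and fewer cells and less RNA per cell cannot be told apart.

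Rnf2 was read at 5.18 and 5.24 in treated mutant and at 5.00, 5.17 and 5.08 in untreated mutant embryos, against 7.31, 6.89 and 7.02 in treated control and 6.84, 6.59 and 6.70 in untreated control embryos. It was lower in every mutant array than in every control array, by 1.86 with the drug and 1.63 without it (exact permutation p = 0.1 for each, 2-sided, the smallest these group sizes allow). Which exons the probe set covers is not given in the files used here. Rnf2 did not pass the test for a change with α-amanitin in mutant embryos (0.13 ± 0.13, adjusted p = 0.732). Ring1 lay between 4.37 and 4.61 in mutant embryos, near the receptor genes, and at 4.35 to 4.79 in control embryos. Cumulus and granulosa markers, of cells that surround the egg, had 0 of 30 measured members called, with 4 and 9 of them above the receptor percentile in the treated and 7, 7 and 11 in the untreated arrays. At an unadjusted limma p below 0.05, 2 of them fell and 1 rose. Sperm markers likewise had 0 of 23 called, and 0 at an unadjusted p below 0.05. Over all genes 2.59% fell and 1.09% rose, so 0 calls in lists of this size is close to those shares.

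By Pearson's correlation, mutant arrays of a group resembled each other more than those of the other treatment; by Spearman's they did not all do so. Pearson's correlation over all probe sets was 0.966 between the 2 treated mutant arrays, 0.968 to 0.974 among the 3 untreated ones, and 0.928 to 0.949 between a treated and an untreated one. Spearman's was 0.867 between the treated arrays, 0.885 to 0.902 among the untreated ones and 0.826 to 0.885 between the treatments. Pearson's correlations of treated to untreated pairs in control embryos lay at 0.805 to 0.822. The treated pair did differ in its spread: 11.0% of probe sets of treated replicate 1 and 14.2% of treated replicate 2 lay above 6. Among the untreated arrays the share was 12.9%, 11.9% and 12.4%.

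In mutant embryos 561 genes fell with α-amanitin, 2.59% of those tested, and 236 rose, 1.09%. In control embryos 4182 fell, 19.3%, and 3079 rose, 14.2%. Of the mutant falls, 242 were at least 2-fold and 44 at least 4-fold, against 1929 and 684 of the control falls. Only 6 mutant rises reached 2-fold. The median change over all genes was 0.03 in mutant and 0.04 in control embryos. The split of calls depended on the scaling: 70.4% of the calls in mutant embryos were falls on the deposited values and 55.0% after quantile normalization, with 832 falls and 682 rises.

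The 561 genes that fell had a median level of 4.69 and 4.77 in the treated arrays, against 5.96, 5.53 and 5.79 in the untreated arrays. Untreated replicate 2 was thus the lowest of its group for these genes as a set, and it was the lowest of the 3 for 424 of them. For 176 of the 561 genes (31.4%) the treated mean lay at or below the receptor genes' 95th percentile, where an array value has little room to fall further. None of the 797 called genes had treated and untreated mutant arrays that overlapped, which was true of 6086 genes in all, 28.1% of those tested.

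Of the mutant falls, 523 also fell in control embryos, which is 93.2% of the mutant falls and 12.5% of the control falls. The difference of the treatment effect, mutant minus control, was tested as an interaction. It was above 0 for 2928 genes (13.5%) and below 0 for 905 genes (4.18%). Among the 561 mutant falls it was above 0 for 378, which fell less than in control embryos on these arrays, below 0 for 25, which fell more, and did not pass the test for 158. For 89 of the 378 the treated mutant mean lay at or below the receptor percentile, so that their fall in mutant embryos is a lower bound. For these 89 the smaller fall is not a measured difference of fall. The treated control mean lay there for 111 of the 378, and the means of both genotypes for 75. A further 2437 genes fell in control embryos, were not called in mutant embryos and had an interaction above 0; they make up 58.3% of the control falls.

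**Figure D1:**
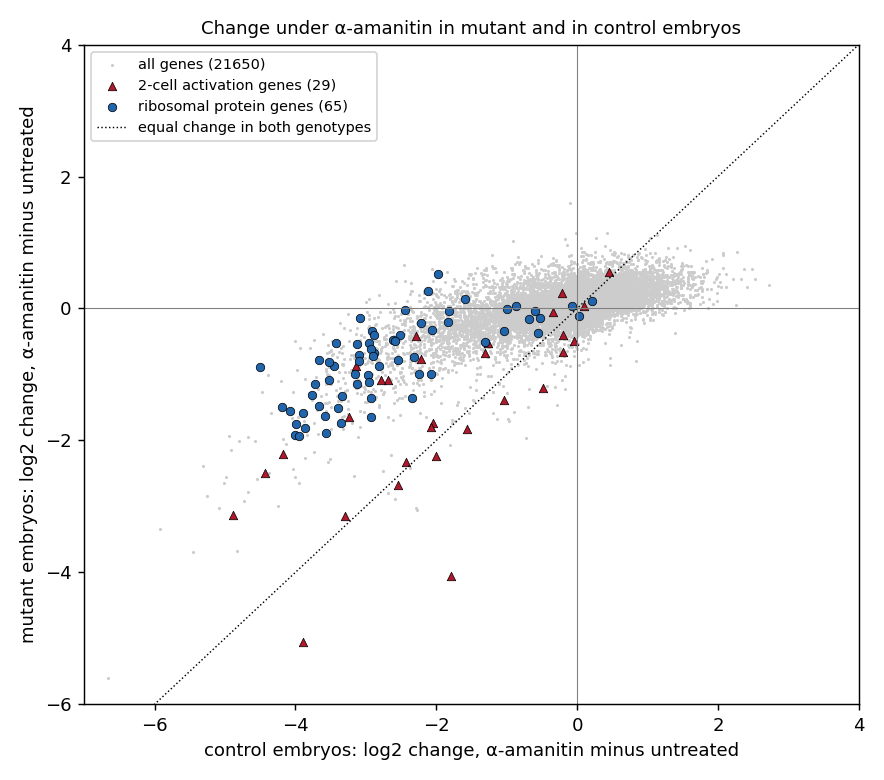
Log2 change with α-amanitin (treated minus untreated) of 21650 genes in mutant embryos (vertical axis) against control embryos (horizontal axis), from the limma fit. Grey points are all genes, red triangles the 29 measured 2-cell activation genes, blue circles the 65 measured ribosomal protein genes, and the dotted line marks an equal change. Most ribosomal protein genes lie far above the line, with a median of -0.73 in mutant and -2.92 in control embryos, while Zfp352 (-5.06 and -3.89) lies below it.

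Of the 29 gene lists, that of the 2-cell burst had the lowest median change and the highest share of falls in mutant embryos. Of 29 measured members of the 2-cell activation list, 18 fell in mutant embryos (62.1%, beside 2.59% of all genes) and 0 rose (1 at an unadjusted p below 0.05 in limma), with a median change of -1.20, beside 0.03 over all genes. In control embryos 22 fell and 0 rose, with a median of -2.04. The median level of the list was 4.67 and 4.70 in the treated mutant arrays, against 6.42, 6.01 and 6.62 in the untreated ones. Of the 18 falls in mutant embryos, 2 were larger than in control embryos, 7 were smaller and for 9 the difference did not pass the test. Between 17 and 19 members fell whichever array was left out, and 10 with the 5 mutant arrays fitted alone.

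Zfp352, which encodes a zinc-finger protein and is a marker of the 2-cell stage, was read at 4.79 and 4.97 in the treated arrays, against 10.21, 9.75 and 9.83 in the untreated arrays. The groups lay far apart, and the treated level was close to that of the receptor genes. The change was -5.06 ± 0.18 (adjusted p = 6.1e-07), a level 33.3-fold lower with the drug. In control embryos it was -3.89, and the interaction of -1.17 passed the test (95% interval -1.71 to -0.62, adjusted p = 0.00835). The larger fall went with a higher untreated level in mutant embryos, since the untreated control arrays read 8.96, 9.56 and 9.26. The mean treated level was also lower in mutant than in control embryos and made up the rest of the difference.

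Gm4340, a predicted gene of the same list, showed the difference between genotypes more strongly. It was read at 5.49 and 5.77 in treated and at 9.67, 9.65 and 9.76 in untreated mutant embryos. In control embryos it was read at 5.27, 4.92 and 5.02 with the drug, against 6.65, 7.37 and 6.56 without it. The untreated mutant arrays were the highest of all. The change was -4.06 ± 0.21 in mutant embryos (adjusted p = 1e-05) and -1.79 in control embryos, with an interaction of -2.27 (95% interval -2.90 to -1.64, adjusted p = 0.000389).

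The Tdpoz genes encode proteins with TD and POZ domains, as found in adaptors of cullin ubiquitin ligases, and lie as near-identical copies on chromosome 3. All 5 measured members fell in mutant embryos, with changes between -3.14 for Tdpoz1 and -1.39 for Tdpoz3. Tdpoz1 was read at 3.96 and 4.73 in treated and at 7.86, 7.08 and 7.52 in untreated mutant embryos. Its treated values spanned the receptor genes' percentile and lay well below every untreated value. Its change of -3.14 ± 0.24 (adjusted p = 8.12e-05) stood beside -3.30 in control embryos, and the interaction was 0.16 (95% interval -0.55 to 0.88). For Tdpoz5 the change was -2.68 ± 0.15, beside -2.55 in control embryos. For none of the 5 did the interaction pass the test, and probes of such copies may read more than 1 gene.

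Spopfm2, of the family of speckle-type POZ genes, was read at 4.77 and 5.04 in treated and at 8.12, 7.51 and 7.75 in untreated mutant embryos. Its change was -2.89 ± 0.19 (adjusted p = 2.79e-05), against -2.59 in control embryos. Tmem92, which encodes a membrane protein, was read at 4.64 and 4.70 with the drug and at 7.23, 6.62 and 7.14 without it, a change of -2.33 ± 0.17. Usp17lb, a deubiquitinase gene, changed by -2.24 ± 0.28 and Tcstv3, known from 2-cell embryos and 2-cell-like stem cells, by -1.82 ± 0.26. For these 4 genes the interaction lay between -0.30 and 0.11 and did not pass the test.

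Pramel genes, of a large leucine-rich family expressed in the germ line and early embryos, included a smaller fall and a larger fall than in control embryos by the interaction test, and falls with no called difference. Pramel17 was read at 4.26 and 4.48 in treated and at 6.85, 6.60 and 6.93 in untreated mutant embryos, and Pramel19 at 4.49 and 4.62 against 7.64, 6.84 and 7.55. Their changes of -2.42 ± 0.21 and -2.79 ± 0.29 stood beside -2.38 and -2.68 in control embryos, with interactions of -0.04 and -0.10 that did not pass the test. Pramel7 fell by 2.50 ± 0.24 in mutant embryos and by 4.43 in control embryos, and its interaction of 1.93 passed the test (adjusted p = 0.00202). Pramel20 went the other way, with -1.96 ± 0.27 in mutant and -0.72 in control embryos and an interaction of -1.24 (adjusted p = 0.0418).

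Other 2-cell genes fell less than in control embryos by the interaction test. Kdm5b, a histone H3 lysine 4 demethylase, was read at 4.69 and 4.45 in treated and at 7.20, 6.32 and 6.82 in untreated mutant embryos. Its change was -2.21 ± 0.21, beside -4.17 in control embryos. Slc34a2, a sodium-phosphate cotransporter, changed by -3.13 ± 0.27 and -4.88, Ubtfl1, a relative of the factor UBTF, by -1.64 ± 0.23 and -3.24, and Obox6, an oocyte-type homeobox gene, by -1.09 ± 0.19 and -2.68. Dppa4, a chromatin protein of early embryos, changed by -1.08 ± 0.19 and -2.79, while its partner Dppa2 did not pass the test in mutant embryos (-0.41 ± 0.22, beside -2.29). The remaining 10 members without a call include Eif1ax, Arg2 and Zfp365, with changes of 0.24, -0.05 and 0.04. Eif1ad and Sp110 just missed, at -0.68 and -0.87 (adjusted p = 0.0553 and 0.0910).

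Promoters of 4 of these genes are shown because burst genes had few CpG dinucleotides there and because Zfp352 carries a repeated motif; the 4 were chosen after their letters were seen. They are the 250 bases before and 50 after the RefSeq start (GRCm38.p6), read in the direction of the gene, and capitals mark TAATCC, the core recognised by homeodomain proteins of the OTX and CRX type, in either orientation (GGATTA on the other strand).
Zfp352 (chr4:90218570-90218869, plus strand), Tdpoz1 (chr3:93676234-93676533, minus strand), Spopfm2 (chr3:94178144-94178443, minus strand) and Pramel17 (chr4:101843973-101844272, minus strand):
Zfp352: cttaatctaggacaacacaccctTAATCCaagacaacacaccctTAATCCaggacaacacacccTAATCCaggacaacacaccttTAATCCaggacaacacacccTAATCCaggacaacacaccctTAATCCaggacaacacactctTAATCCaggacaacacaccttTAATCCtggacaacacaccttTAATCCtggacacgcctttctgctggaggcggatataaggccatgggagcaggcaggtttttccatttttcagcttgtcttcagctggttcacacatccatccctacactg
Tdpoz1: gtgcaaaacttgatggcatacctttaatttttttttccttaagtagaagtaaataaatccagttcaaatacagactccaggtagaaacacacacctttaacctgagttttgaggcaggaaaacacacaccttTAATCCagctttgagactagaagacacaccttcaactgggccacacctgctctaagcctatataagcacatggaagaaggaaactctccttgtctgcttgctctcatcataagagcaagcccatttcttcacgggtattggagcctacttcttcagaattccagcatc
Spopfm2: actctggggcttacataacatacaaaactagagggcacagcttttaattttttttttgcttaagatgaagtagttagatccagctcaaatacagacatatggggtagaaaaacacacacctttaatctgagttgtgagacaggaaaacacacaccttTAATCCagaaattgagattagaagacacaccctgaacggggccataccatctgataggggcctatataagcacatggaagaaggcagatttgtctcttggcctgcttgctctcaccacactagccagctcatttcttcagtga
Pramel17: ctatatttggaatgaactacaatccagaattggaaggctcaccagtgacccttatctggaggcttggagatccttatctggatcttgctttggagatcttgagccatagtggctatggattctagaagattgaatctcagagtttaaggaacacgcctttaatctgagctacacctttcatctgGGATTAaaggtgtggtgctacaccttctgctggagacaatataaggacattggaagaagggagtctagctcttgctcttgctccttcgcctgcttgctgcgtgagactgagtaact
The Zfp352 promoter holds 9 matches, all forward, that begin 227 to 61 bases before the start at steps of 20 or 21 bases. It holds more than any other of the 12764 genes with exactly 1 promoter in the table, of which the next, Gtf2ird1, has 4, and 5 genes in all have 3 or more. Gtf2ird1 changed by 0.06 in mutant embryos and was not called. The other 3 promoters have 1 match each, 118, 93 and 66 bases before the start for Tdpoz1, Spopfm2 and Pramel17. They hold 1 to 3 CpG dinucleotides and that of Zfp352 holds 2. Of the 17 list members with exactly 1 promoter, 12 have 5 or fewer CpG dinucleotides (70.6%) and 4 have a TAATCC (23.5%), beside 28.8% and 6.57% of all 12764 promoters.

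The largest named falls also included genes outside the 2-cell list. The 20 largest falls ran from -5.06 for Zfp352 to -2.42 for Pramel17, and for 13 of the 20 the fall was smaller than in control embryos. For 6 the interaction did not pass the test and for 1, Zfp352, the fall was larger. A further 9 genes with clone or predicted names fell at least as much and are not described, except Gm4340 above; the largest of them changed by -5.60, beside -6.66 in control embryos.

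Prps1, which makes phosphoribosyl pyrophosphate for nucleotide synthesis, was read at 4.98 and 5.83 in treated and at 9.49, 8.4 and 9.39 in untreated mutant embryos. The lowest untreated value still exceeded the higher treated value, and the change was -3.69 ± 0.31 (adjusted p = 0.000122). In control embryos it was -5.46, with an interaction of 1.77 (adjusted p = 0.0137). Ppat, the enzyme of the first committed step of purine synthesis, was read at 4.67 and 4.93 against 7.84, 6.73 and 7.77. It changed by -2.65 ± 0.28, beside -5.01 in control embryos. Impdh2, of guanine nucleotide synthesis, was read at 5.80 and 6.46 against 9.17, 7.76 and 8.62 and changed by -2.39 ± 0.34, beside -5.32. Of 31 nucleotide synthesis genes, 6 fell (19.4%, beside 2.59% of all genes) and 1 rose, Rrm2b (3.23%, beside 1.09%). The list's median change was -0.12.

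Cd63, a tetraspanin of late endosomes and exosomes, was read at 4.51 and 4.58 in treated and at 8.52, 7.27 and 7.84 in untreated mutant embryos. The treated values were at the receptor genes' percentile. It changed by -3.34 ± 0.28, beside -5.92 in control embryos, where the untreated arrays read 10.44, 10.11 and 10.20. Pdxk, which makes active vitamin B6, was read at 4.75 and 4.46 against 8.19, 6.54 and 8.14, with untreated replicate 2 well below the other two. It changed by -3.02 ± 0.39, beside -5.09. Slc19a3, a thiamine transporter, changed by -2.58 ± 0.19, Selenos, a selenoprotein of the endoplasmic reticulum, by -2.84 ± 0.24, and Ctsl, the protease cathepsin L, by -2.43 ± 0.19. Their changes in control embryos were -4.54, -5.26 and -4.04.

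Cdc5l, a core component of the spliceosome's Prp19 complex, was read at 5.79 and 6.84 in treated and at 9.21, 8.79 and 9.28 in untreated mutant embryos. The treated arrays differed by about 1 log2 unit, and both lay below every untreated array. It changed by -2.78 ± 0.31 and 3 of its 4 probe sets were called. Nop16, of ribosome assembly, was read at 4.53 and 4.35 against 7.16, 6.32 and 7.31 and changed by -2.49 ± 0.26. Alppl2, an alkaline phosphatase, changed by -2.56 ± 0.34 and Guca1a, an activator of guanylate cyclase, by -2.55 ± 0.26. All 4 changed more in control embryos, by -4.68, -4.38, -4.98 and -4.00. Gadd45b, a stress-response gene, was read at 4.85 and 4.60 against 7.79, 6.60 and 7.17; its change of -2.46 ± 0.28 stood beside -2.75 in control embryos, and its interaction of 0.29 did not pass the test (95% interval -0.53 to 1.12).

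**Figure D2:**
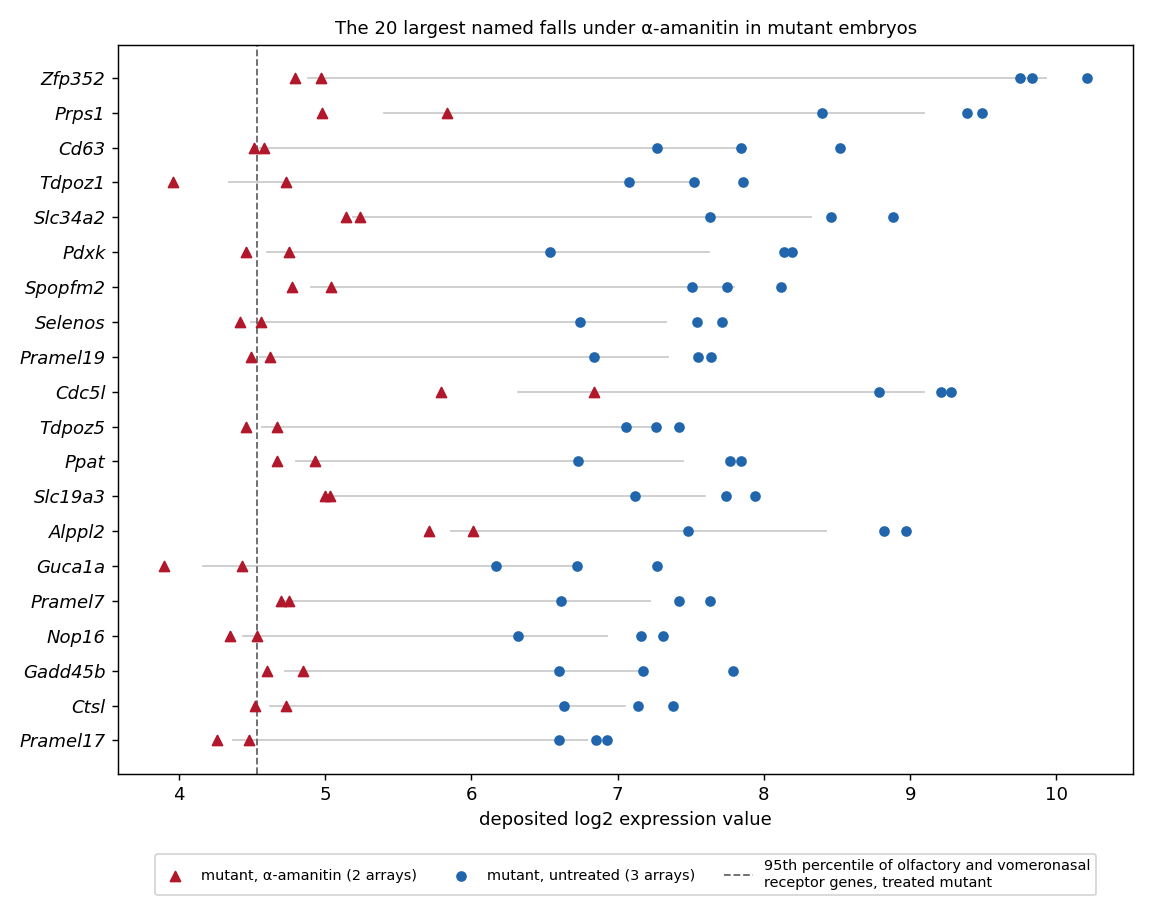
Deposited log2 values (horizontal axis) of the 20 genes with the largest named falls in mutant embryos, 1 gene a row, with red triangles for the 2 α-amanitin arrays and blue circles for the 3 untreated arrays. Grey lines join the group means and the dashed line is the receptor genes' 95th percentile, 4.53. No treated triangle reaches an untreated circle in any row, and the lowest circle is untreated replicate 2 in all 20 rows.

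Promoters of 3 more genes are given as examples beside those of the burst genes. All 20 largest named falls had exactly 1 promoter in the table, and most of their promoters are not shown. Wdr77 is not among those 20 and its change is not given here. Here capitals mark GGGCGG, the core of the GC box, in either orientation (CCGCCC on the other strand), for Ppat (chr5:76951529-76951828, minus strand), Nop16 (chr13:54590025-54590324, minus strand) and Wdr77 (chr3:105959248-105959547, plus strand), a subunit of the PRMT5 methylosome that was chosen after its values were seen:
Ppat: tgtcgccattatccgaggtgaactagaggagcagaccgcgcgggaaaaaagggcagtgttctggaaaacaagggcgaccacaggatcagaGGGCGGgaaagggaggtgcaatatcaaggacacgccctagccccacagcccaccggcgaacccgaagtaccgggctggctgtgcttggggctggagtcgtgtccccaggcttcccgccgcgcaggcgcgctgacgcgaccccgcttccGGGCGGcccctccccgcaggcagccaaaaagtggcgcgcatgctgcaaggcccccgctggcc
Nop16: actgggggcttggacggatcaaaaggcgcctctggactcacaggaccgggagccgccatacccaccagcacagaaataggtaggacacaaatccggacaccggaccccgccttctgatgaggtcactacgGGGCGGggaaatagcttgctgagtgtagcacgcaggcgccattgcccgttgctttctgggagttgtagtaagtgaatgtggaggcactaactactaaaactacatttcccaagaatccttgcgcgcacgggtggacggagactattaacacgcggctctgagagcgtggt
Wdr77: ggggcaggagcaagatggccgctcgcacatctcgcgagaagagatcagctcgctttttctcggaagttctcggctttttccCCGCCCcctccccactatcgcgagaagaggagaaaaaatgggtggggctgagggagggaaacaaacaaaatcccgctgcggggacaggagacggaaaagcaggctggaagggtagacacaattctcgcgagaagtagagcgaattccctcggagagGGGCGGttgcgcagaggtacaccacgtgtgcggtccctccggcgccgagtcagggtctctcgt
They hold 27, 19 and 25 CpG dinucleotides and 2, 1 and 2 GC boxes, and none has a TAATCC.

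Over the 369 mutant falls with exactly 1 promoter in the table, promoters were described by whether the fall differed from that in control embryos. Genes that fell less than in control embryos (258 promoters) had a median of 22 CpG dinucleotides, and 3.88% of them had 5 or fewer. Genes whose difference from control did not pass the test (96 promoters) had a median of 18.5, with 24.0% at 5 or fewer. The 15 promoters of genes that fell more than in control embryos had a median of 7, with 40.0% at 5 or fewer. All 12764 promoters had a median of 15, with 28.8% at 5 or fewer. The 147 promoters of genes that rose in mutant embryos had a median of 23, with 6.12% at 5 or fewer. Among the falls the first group was thus the one with few CpG-poor promoters, a trait it shared with the genes that rose.

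For GC boxes and ETS-type cores the same order held, and for TATAAA and CCAAT the opposite one. A GC box was present in 69.0% of the promoters of genes that fell less, 58.3% of those with no called difference and 26.7% of those that fell more, beside 50% of all promoters. The shares with CCGGAAG, the core of ETS-type sites, were 21.7%, 8.33% and 0.0%, beside 12.7% of all. TAATCC was present in 9.30%, 7.29% and 26.7%, beside 6.57% of all; the last is 4 of 15 promoters. TATAAA was present in 6.20%, 16.7% and 33.3%, beside 12.9%. Promoters of genes that rose lay near those of genes that fell less for most motifs. Their shares were 61.9% for the GC box, 24.5% for CCGGAAG, 5.44% for TAATCC, 6.12% for TATAAA and 40.1% for CCAAT. All motifs were searched on both strands, none contains another, and these are descriptions of windows with no test. By list, 0 of 42 promoters of ribosomal protein genes and 0 of 79 of ribosome biogenesis genes had 5 or fewer CpG dinucleotides.

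Ribosomal protein genes gave more falls than any other of the 29 lists. Of 65 measured, 27 fell in mutant embryos (41.5%) and 0 rose (1 at an unadjusted limma p below 0.05), with a median of -0.73. In control embryos 62 fell and 0 rose, with a median of -2.92. The list's median level was 6.37 and 6.69 in treated mutant arrays, against 7.64, 6.86 and 7.33 in untreated ones, so untreated replicate 2 lay much nearer to the treated arrays than the other two. The interaction was above 0 for 57 members and below 0 for 0, and all 27 mutant falls were smaller than in control embryos. Between 17 and 31 members fell as single arrays were left out, and 0 with the 5 mutant arrays fitted alone.

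Rpl26, of the large subunit, was read at 5.56 and 6.43 in treated and at 8.32, 7.62 and 7.88 in untreated mutant embryos, a change of -1.94 ± 0.24 (adjusted p = 0.00177), beside -3.95 in control embryos. Rpl30 changed by -1.5 ± 0.18, beside -4.19. For both genes, treated and untreated arrays stood more than 1 log2 unit apart. The probe sets of ribosomal protein genes did not all move: 2 of 6 for Rpl30 and 1 of 6 for Rpl3 were called, and these genes have many processed pseudogenes that can share probes.

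Ribosome biogenesis genes nearly all fell in control embryos and a smaller share was called in mutant embryos. Of 104 measured, 17 fell in mutant embryos (16.3%) and 0 rose (3 at an unadjusted limma p below 0.05), with a median of -0.27. In control embryos 100 fell, with a median of -1.92. The interaction was above 0 for 95 and below 0 for 0. With the 5 mutant arrays fitted alone, 1 member was called. Nop58, a box C/D small nucleolar ribonucleoprotein subunit, was read at 4.81 and 5.53 against 6.87, 6.23 and 6.67, a change of -1.42 ± 0.21, beside -3.52. Mybbp1a, a nucleolar protein, was read at 4.67 and 4.85 against 6.19, 5.58 and 6.16, a change of -1.22 ± 0.18, beside -3.68. Nop14 and Nol11, of small-subunit assembly, changed by -1.04 ± 0.15 and -1.29 ± 0.19, beside -2.50 and -3.07.

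Genes of RNA synthesis and processing fell at a higher share than all genes in mutant embryos (2.59%), with list medians near 0. The share over all genes includes genes near background, for which a fall could hardly be seen. With the 5 mutant arrays fitted alone, 2 splicing factors fell, and 0 members of the polymerase and nuclear pore lists. Of 66 splicing factors 8 fell (12.1%) and 2 rose, with a median of 0.02, beside 56 falls and a median of -1.10 in control embryos. Srsf7, a serine- and arginine-rich splicing regulator, was read at 4.76 and 4.89 against 6.39, 6.01 and 5.99, a change of -1.30 ± 0.14, and Snrpd2, a core Sm protein, changed by -2.22 ± 0.31, with 2 of its 4 probe sets called. Of 70 subunits of RNA polymerases and general transcription factors 6 fell (8.57%) and 1 rose, with a median of -0.05, beside 52 falls and -1.03 in control embryos. Polr1c, shared by RNA polymerases I and III, changed by -1.77 ± 0.24, beside -3.38, and Taf9, of TFIID and SAGA, by -0.87 ± 0.19, beside -2.68. Taf3, also of TFIID, rose by 0.49 ± 0.11, beside 0.65. Between 1 and 7 of the 70 fell as single arrays were left out, control arrays included, and 7 rose without treated replicate 1. Of 56 nuclear pore and transport genes 6 fell (10.7%) and 2 rose, against 4 falls and 12 rises without treated replicate 1 and 2 falls and 0 rises without treated replicate 2.

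Genes of protein synthesis and folding gave similar values. With the 5 mutant arrays fitted alone, 0 translation factors, 0 tRNA synthetases and 1 chaperone fell. Of 48 translation factors 3 fell (6.25%), Eif3a, Pabpc1 and Eif3c, and Eif1b rose, while 37 fell in control embryos. Pabpc1, the cytoplasmic poly(A)-binding protein, was read at 5.22 and 5.65 against 7.29, 6.59 and 6.90, a change of -1.49 ± 0.19, beside -3.50. Without treated replicate 1, 2 translation factors fell and 8 rose. Of 39 chaperones 5 fell (12.8%), and for 3 of these the interaction did not pass the test. Hspa5, the Hsp70 of the endoplasmic reticulum, was read at 7.43 and 7.72 against 9.21, 8.84 and 8.94, a change of -1.42 ± 0.12, beside -1.69. Hspa1a, the heat-inducible Hsp70, changed by -0.92 ± 0.16, beside -1.05. Iars, the isoleucyl-tRNA synthetase, was the 1 of 20 synthetases that fell, by 1.13 ± 0.17, beside -1.11, while 5 synthetases rose without treated replicate 1 and 3 fell without treated replicate 2.

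Of 48 proteasome genes, 3 fell (6.25%, beside 2.59% of all genes) and 2 rose (4.17%, beside 1.09%) in mutant embryos, with a median of 0.01. In control embryos 37 fell, with a median of -1.37. The list shows the difference between the treated arrays: its median level was 5.82 in treated replicate 1 and 6.66 in treated replicate 2, against 6.18, 6.01 and 6.21 in the untreated arrays, which lay between them. Without treated replicate 1, 0 proteasome genes fell and 9 rose, and without treated replicate 2, 3 fell and 0 rose. Psmb5, a catalytic subunit, was read at 6.54 and 6.71 against 8.15, 7.23 and 8.27, a change of -1.26 ± 0.26, beside -4.47. Psmd2, of the regulatory particle, rose by 0.64 ± 0.13, with 1 of 2 probe sets called.

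Stress genes fell at a higher share than all genes, with list medians near 0. The share over all genes includes genes near background, for which a fall could hardly be seen. With the 5 mutant arrays fitted alone, 0 genes of the unfolded protein response and 1 p53 target fell. Of 34 genes of the unfolded protein response 6 fell (17.6%, beside 2.59% of all genes) and 1 rose, with a median of -0.07. Dnajb9, a co-chaperone of HSPA5, changed by -1.90 ± 0.26, beside -3.68, and Sesn2, a stress-induced inhibitor of mTORC1 signalling, by -1.30 ± 0.18, beside -3.56. Of 34 p53 targets 4 fell (11.8%) and 1 rose, and 3 of the falls were Gadd45 genes. Gadd45a was read at 4.64 and 4.87 against 5.96, 5.96 and 6.14, a change of -1.26 ± 0.12, beside -2.58. Gadd45g changed by -0.49 ± 0.11 in mutant and 0.08 in control embryos, and this interaction of -0.56 passed the test (adjusted p = 0.0285).

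Lists of energy metabolism and the cell cycle had between 0 and 5 falls each. Over all genes 2.59% fell and 1.09% rose in mutant embryos. Of 74 respiratory chain genes 5 fell (6.76%), among them Cox7c with -1.40 ± 0.18, beside -3.40, and 0 of 22 glycolysis genes was called, while 57 and 10 fell in control embryos. For 22 genes, 0 calls is close to the shares over all genes. At an unadjusted limma p below 0.05, 4 glycolysis genes fell and 0 rose. Of 25 amino acid transporters 2 fell (8.0%). Of 55 DNA replication genes 0 fell (6 at an unadjusted limma p below 0.05) and 2 rose (3.64%), Rpa1 and Rpa3. Of 59 mitotic genes 2 fell and 2 rose (3.39% each). Without treated replicate 1 the rises were 5 and 8 in these 2 lists, and without treated replicate 2 they were 0 in both. Cdk1, the mitotic kinase, was read at 4.99 and 5.51 against 6.67, 5.96 and 6.42, a change of -1.10 ± 0.20, beside -2.96. Its partner cyclin B1, Ccnb1, was read at 9.95 and 10.28 against 9.58, 9.30 and 9.71 and rose by 0.58 ± 0.14, beside -1.32, with 1 of 3 probe sets called.

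**Figure D3:**
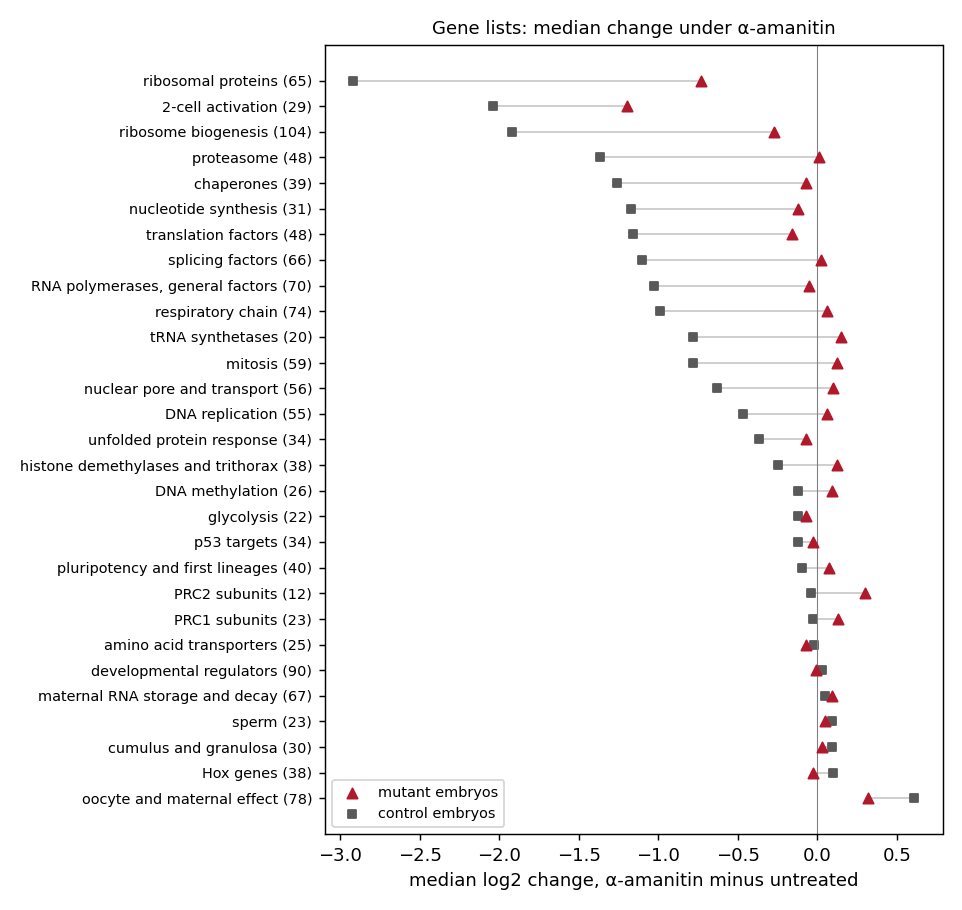
Median log2 change with α-amanitin over the measured members of 29 gene lists (member number in brackets), with red triangles for mutant and grey squares for control embryos. The 2-cell activation (-1.20 and -2.04) and ribosomal protein (-0.73 and -2.92) lists have the lowest mutant medians, and for many lists of cell machinery the mutant median lies near 0 while the control median lies near -1 or below.

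Over all genes 2.59% fell and 1.09% rose in mutant embryos, so 0 calls in a list of about 40 genes is close to those shares. The pluripotency and first-lineage list, with regulators of the later blastocyst, had 0 of 40 members called in mutant embryos. In control embryos 15 fell and 6 rose, beside 19.3% and 14.2% of all genes. At an unadjusted limma p below 0.05, 4 fell and 5 rose. Hox genes, classical PRC1 targets, had 0 of 38 members called, and 17 of the 38 lay at or below the receptor genes' percentile without the drug. Of 90 developmental regulators known as Polycomb targets 0 fell and 1 rose (1.11%), En1, by 0.44 ± 0.10. Without the drug, 32 of the 90 lay at or below the percentile. En1 was read at 4.94 and 4.93 in treated and at 4.39, 4.47 and 4.64 in untreated mutant embryos, so all its values were close to the percentile. At an unadjusted p below 0.05, 2 Hox genes fell and 3 rose, and 6 developmental regulators fell and 4 rose. For members at the percentile a fall could not be seen on these arrays.

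Among the 23 measured PRC1 subunits, 2 fell with α-amanitin and 0 rose (2 at an unadjusted limma p below 0.05). The falls are 8.7% of the list, beside 2.59% falls and 1.09% rises over all genes, and rest on only 2 genes. Pcgf5, a subunit of variant PRC1, was read at 5.01 and 5.10 in treated and at 6.40, 5.77 and 6.20 in untreated mutant embryos, a change of -1.07 ± 0.17 (adjusted p = 0.00806), beside -2.66 in control embryos. Its treated and untreated groups did not overlap. Bmi1, a partner of the ligases, lay between 8.70 and 9.06 in all 5 arrays, with a change of 0.18 ± 0.14 (95% interval -0.14 to 0.49). Cbx2 changed by -0.05 ± 0.13, Rybp by -0.22 ± 0.14 and Kdm2b by 0.65 ± 0.19, and none of them passed the test. Scmh1 changed by 0.14 in mutant and 1.37 in control embryos, with an interaction of -1.23 (adjusted p = 0.00422).

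Other chromatin genes gave calls in both directions. The rises were 16.7% of the PRC2 list. Falls and rises were 3.85% each of the DNA methylation list and 7.89% each of the demethylase and trithorax list. Over all genes 2.59% fell and 1.09% rose, and each list share rests on at most 3 genes. Of 12 PRC2 genes 2 rose, Rbbp7 by 0.66 ± 0.13 and Jarid2 by 0.47 ± 0.09, against 4 rises without treated replicate 1 and 0 rises and 1 fall without treated replicate 2. Of 26 DNA methylation genes Tet1, which oxidises methylcytosine, fell by 0.75 ± 0.12, beside -2.65 in control embryos, and Dnmt3b, a DNA methyltransferase, rose by 0.45 ± 0.10, beside -0.20. Of 38 demethylase and trithorax genes 3 fell and 3 rose, with 8 rises without treated replicate 1 and 1 without treated replicate 2. The falls were Kdm5b, described above, Kdm3a with -0.65 ± 0.11 and Kdm5a with -0.82 ± 0.14. Kdm1a and Kdm1b, which demethylate histone H3 lysine 4, rose by 0.61 ± 0.11 and 0.70 ± 0.09.

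Among the 29 lists, the one of oocyte and maternal-effect genes, which egg RNA is rich in, gave the most rises, and the rises rested largely on 1 array. Of 78 measured oocyte and maternal-effect genes 11 rose (14.1%, beside 1.09% of all genes) and 0 fell (1 at an unadjusted limma p below 0.05), with a median of 0.32; in control embryos 51 rose and 8 fell, with a median of 0.61. The list's median level was 7.18 and 7.67 in treated arrays, against 7.09, 6.99 and 6.94 in untreated ones. Without treated replicate 2 the list had 2 rises and a median of 0.15, and without treated replicate 1 it had 25 rises and a median of 0.51. Treated replicate 2 exceeded replicate 1 for 221 of the 236 genes that rose. Over these 236 genes the median level was 6.90 and 7.18 in treated and 6.32, 6.35 and 6.42 in untreated arrays.

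Obox5, an oocyte homeobox gene, was read at 9.44 and 10.03 in treated and at 8.93, 9.10 and 9.01 in untreated mutant embryos. It rose by 0.72 ± 0.15 (adjusted p = 0.0279), less than the 1.83 of control embryos (interaction -1.11, adjusted p = 0.00359). Btg4, an adaptor that brings the deadenylase to maternal RNA, was read at 10.83 and 11.09 against 10.39, 10.29 and 10.52 and rose by 0.56 ± 0.12, beside 1.06. Its deadenylase subunits Cnot6l and Cnot7 rose by 0.64 ± 0.15 and 0.47 ± 0.11, beside 1.62 and 1.10, and both interactions passed the test (adjusted p = 0.00610 and 0.0138). Parn, another deadenylase, rose by 0.62 ± 0.09. In the list of maternal RNA storage and decay 7.46% rose and 1.49% fell, beside 1.09% and 2.59% of all genes. Of the 67 genes of maternal RNA storage and decay 5 rose and 1 fell, Btg1, by 0.84 ± 0.19; 16 rose without treated replicate 1 and 1 without treated replicate 2.

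Outside the lists, the largest rise was that of Crabp2, a retinoic acid-binding protein, at 8.18 and 8.46 in treated and 6.12, 6.32 and 7.73 in untreated mutant embryos. Its untreated values spread widely, and the rise of 1.60 ± 0.38 barely passed the test (adjusted p = 0.0491). Rbm18 rose by 1.11 ± 0.19, Tnpo1, a nuclear import receptor, by 1.07 ± 0.17, and Usp46, a deubiquitinase, by 0.95 ± 0.15, beside 1.13, 1.03 and 1.53 in control embryos. Rbm39, a splicing coactivator, rose by 1.05 ± 0.18 and Gch1, of tetrahydrobiopterin synthesis, by 0.96 ± 0.15, where control embryos had -0.17 and -0.14. The remaining 6 of the 12 largest rises lay between 0.89 and 1.15.

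Of the 236 rises, 151 also rose in control embryos, which is 64.0% of the mutant rises and 4.90% of the control rises, and 12 fell there. Snrpd3, a core Sm protein of the spliceosome, was among these. It was read at 10.78 and 10.93 in treated and at 10.15, 10.01 and 10.42 in untreated mutant embryos, a rise of 0.66 ± 0.15. In control embryos it was read at 8.0, 7.73 and 7.64 with the drug and at 10.45, 10.15 and 10.17 without it, a change of -2.46. The untreated levels of the genotypes were alike in range and the treated levels stood apart, with an interaction of 3.12 (95% interval 2.68 to 3.57, adjusted p = 5.12e-05).

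Among genes called in mutant embryos and without clone names, those with the largest interaction fell steeply in control embryos. The interaction subtracts the control change, so such falls raise it by construction. Bola2, of iron-sulphur protein maturation, was read at 6.77 and 6.75 in treated and at 8.04, 7.19 and 8.08 in untreated mutant embryos, against 5.54, 5.66 and 5.70 in treated and 10.26, 9.85 and 9.98 in untreated control embryos. The mutant arrays of both treatments thus lay between the treated and untreated control arrays. Its change was -1.01 ± 0.23 in mutant and -4.39 in control embryos, and the interaction was 3.38 (95% interval 2.70 to 4.07). Psmb5, with 3.22, Gabarapl2, of autophagosome formation, with 3.01, Impdh2 with 2.93 and Flvcr2, a membrane transporter, with 2.79 followed. Gabarapl2 had 1 of 2 probe sets called.

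At the other end, among the same genes, 4 of the 6 with the lowest interactions rose in both genotypes and rose less in mutant embryos. Genes not called in mutant embryos, such as Scmh1 above, and clone names such as Gm4340 do not enter this ranking. Pla2g4c, a phospholipase, was read at 9.93 and 10.26 in treated and at 9.49, 9.50 and 9.51 in untreated mutant embryos, a rise of 0.60 ± 0.12, against 10.74, 10.46 and 10.65 in treated and 8.05, 8.28 and 8.07 in untreated control embryos, a rise of 2.48. The untreated mutant arrays were all higher than the untreated control arrays. Its interaction was -1.89 (adjusted p = 8.49e-05), and Iqca, Sytl4 and Trappc2 had -1.46, -1.26 and -1.23. H2bc1, a testis-type histone H2B, was read at 9.37 and 9.00 in treated and 10.28, 9.86 and 9.66 in untreated mutant embryos and fell by 0.75 ± 0.17, while in control embryos it changed by 0.47.

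The counts depended on single arrays to different degrees. Between 326 and 570 genes fell as each of the 11 arrays was left out in turn, while between 24 and 1061 rose. Without treated replicate 2, 470 genes fell and 24 rose, and without treated replicate 1, 359 fell and 1061 rose. Without untreated replicate 1, 326 fell, without replicate 3, 374, and without replicate 2, 570. With the 5 mutant arrays fitted alone, 69 genes fell and 0 rose, and at an unadjusted p below 0.05 those counts were 1312 and 1262. All 561 falls kept a change below 0 in each of these fits, which is fixed in advance because their treated and untreated arrays did not overlap. All 20 largest named falls were called whichever control or untreated mutant array was left out, and 15 of them with the mutant arrays alone. Leaving out a treated mutant array leaves 1 sample in that group, which is then assumed to vary like the other groups. The difference between the treated arrays was not traced to a step, and its part in the rises was not tested.

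**Figure D4:**
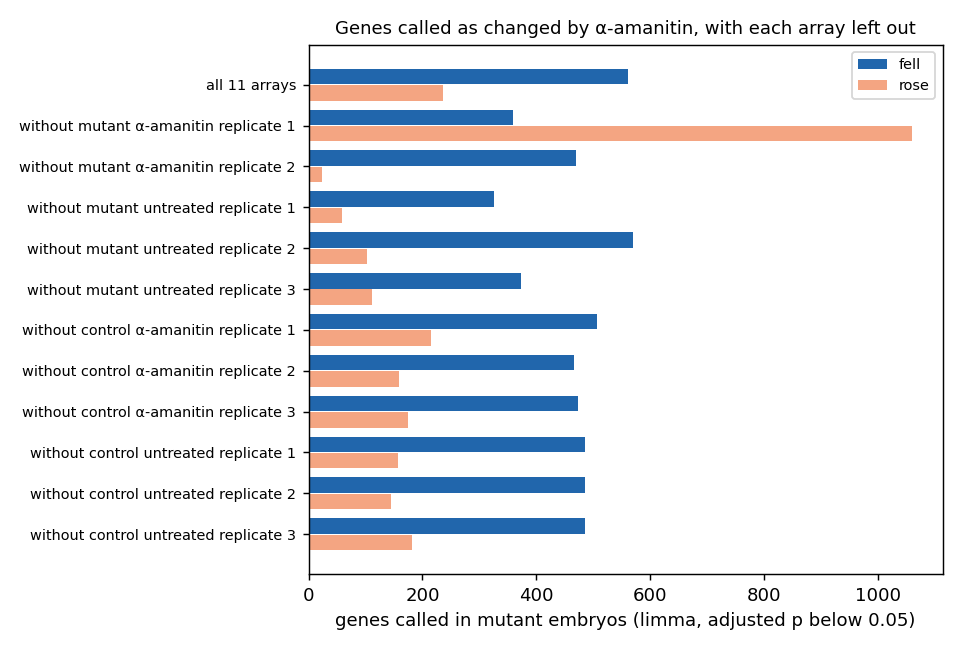
Number of genes (horizontal axis) called as fallen (blue) or risen (orange) with α-amanitin in mutant embryos with all 11 arrays and with each array left out (limma, adjusted p below 0.05). Falls stay between 326 and 570, while rises reach 1061 without treated replicate 1 and 24 without treated replicate 2.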

How the data were processed

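Pools of 40 embryos were measured on Affymetrix whole-transcript arrays. The authors deposited a table of log2 values for 34760 probe sets on 11 arrays, between 1.11 and 12.85 over all arrays. The submitters' processing notes name R 2.10.0 and affy; how background was corrected and arrays were normalized is not stated there. RNA was amplified by whole-transcriptome PCR before labelling, per the labels' protocols, which can compress differences.

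The platform annotation gave 1 symbol to 23303 probe sets, several to 1309 and none to 10148. Of those with 1 symbol, 20057 were updated or checked by Entrez identifier, 1005 matched by symbol and 2241 kept the annotation's symbol. Those with several entered the tests and are not named. Promoters were read from RefSeq (GRCm38.p6) by Entrez identifier; 12764 genes and 369 of the 561 falls had exactly 1.

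The log2 values were fitted without further scaling with limma 3.58.1 in R 4.3.3: 1 mean per group over all 11 arrays, lmFit and eBayes, with 7 residual degrees of freedom (3.59 prior). All p-values are 2-sided, adjusted by Benjamini-Hochberg over all probe sets. On simulated data for the treatment effect in mutant embryos over 34760 probe sets the fit called 47 and 46 of 50 changes of -1.5 and 1.5, and 30 and 38 of 50 of -1 and 1, with 3 false calls. The simulated noise was normal and independent, and changes were placed only in probe sets above the median level. It holds no difference in spread between arrays like that of the treated mutant pair, so the 3 false calls do not measure error in the real data. The number of arrays, above all the 2 treated mutant ones, limits the precision.

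Members and gene lists were chosen with earlier results of these data known. Named genes were the 20 largest falls and 12 largest rises without clone names, up to 5 members per list by adjusted p with up to 2 in the rarer direction, all 2-cell activation and PRC1 members, and the 6 largest interactions in each direction among genes without clone names that were also called in mutant embryos; a gene outside this rule is marked as such. The values of some genes that the rule covers are not reported here. Alternatives tried were other normalizations, a filter on dim probe sets, a trended prior, array weights, the mutant arrays alone, replicate blocks, the mean of a gene's probe sets and leaving out each array.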

Additional observations from a re-analysis of the deposited data

Results flagged for a closer look

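The effect of α-amanitin differed between mutant and control embryos for 3833 genes (limma interaction, adjusted p below 0.05), and the genes below stand out because that difference itself passed the test. Values are the mutant change minus the control change on the log2 scale. Among the largest falls the difference was 2.58 for Cd63, 2.42 for Selenos, 2.42 for Alppl2, 2.36 for Ppat, 2.07 for Pdxk, 1.95 for Slc19a3, 1.93 for Pramel7 and 1.90 for Cdc5l. It was 1.89 for Nop16, 1.77 for Prps1, 1.75 for Slc34a2, 1.61 for Ctsl and 1.45 for Guca1a. Each of these 13 genes fell less in mutant than in control embryos on these arrays. For Selenos, Guca1a and Nop16 the treated mean was at or below the receptor genes' 95th percentile in both genotypes, so their falls are lower bounds and the difference is not a measured difference of fall.

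Zfp352 was the 1 named fall of the 20 that was larger in mutant embryos, with -1.17. Among the largest rises the difference was 1.22 for Rbm39, 1.10 for Gch1 and 0.86 for Mfap1b, which changed by 0.91 ± 0.19 in mutant and 0.05 in control embryos.

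Among genes called in mutant embryos and without clone names, at the upper end were Bola2 with 3.38, Psmb5 with 3.22, Snrpd3 with 3.12, Gabarapl2 with 3.01, Impdh2 with 2.93 and Flvcr2 with 2.79. At the lower end of the same genes were Pla2g4c with -1.89, Iqca with -1.46, Sytl4 with -1.26, Pramel20 with -1.24, Trappc2 with -1.23 and H2bc1 with -1.22. Of these 12 genes, Iqca rested on 1 of its 4 probe sets in mutant embryos, and not all probe sets of Gabarapl2 were called, as described above.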

How the results depend on the processing

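No gene called in mutant embryos and followed here changed its direction under any alternative. Leaving out arrays could not change it, since treated and untreated mutant arrays of called genes did not overlap. The medians of 17 of the 29 lists changed sign under at least 1 alternative, and those of 15 of these lists did so when a treated mutant array was left out. Without treated replicate 1 the balance of calls turned to 359 falls and 1061 rises, and the median was 0.12 for chaperones and 0.04 for translation factors, and without treated replicate 2 it was -0.08 for tRNA synthetases and -0.05 for mitosis. The 20 largest named falls were all called except with the 5 mutant arrays fitted alone (15 of 20) and with the mutant replicate block (6 of 20). The other counts moved as follows, against 1238 probe sets, 797 genes, 561 falls, 236 rises and 4983 interaction probe sets on the deposited values. Quantile normalization gave 2177 probe sets, 1514 genes and 682 rises, cyclic loess 1229 genes and 899 falls, the brighter 50% of probe sets 438 rises, and a trended prior 147 rises. Array weights gave 558 probe sets, 354 genes, 299 falls and 55 rises, the mutant arrays alone 142 probe sets, 69 genes, 69 falls and 0 rises, and the mean of a gene's probe sets 1267 genes and 503 rises. The cause of these moves was not tested. Leaving out 1 array gave 643 to 1908 probe sets, 385 to 1420 genes, 326 to 570 falls, 24 to 1061 rises and 4164 to 4940 interaction probe sets. The main fit did not pair samples by replicate number. Deviations of same-numbered mutant arrays correlated at -0.15, and with 2 treated arrays both pairs give the same value by construction. Those of control arrays correlated at 0.15, 0.05 and 0.09, where each correlated best with its own number. That is a hint from the data and not the design, and these values do not settle whether samples were paired. With the replicate block over all 11 arrays 531 genes and 96 rises were called. With the replicate block over mutant replicates 1 and 2, which leaves out an untreated array, 46 probe sets, 18 genes, 17 falls and 1 rise were called. Genes near the receptor level are limited by signal over background.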
